A study of Mus musculus with 24 samples.

Results

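Macrophage marker genes were followed as a set of 10 named genes, of 17097 mouse genes that the arrays measured through probe sets naming 1 gene. The members were taken by symbol, with every probe set that named only that member, from a list drawn up with earlier results of these data known. They were the mannose receptor Mrc1, the haemoglobin scavenger receptor Cd163, the lysosomal glycoprotein Cd68, the endotoxin co-receptor Cd14, the F4/80 antigen Adgre1, the growth factor receptor Csf1r with its ligand Csf1, the integrin chain Itgam, the lysozyme Lyz2 and the complement component C1qa. They had 13 probe sets, 4 for Csf1 and 1 for each of the others. Only 5 members, Mrc1, Cd68, Cd14, Csf1r and Csf1, had a mean above the floor of 6.27 on the log2 scale, the 40th percentile of all probe sets, and these 5 were tested.

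RNA came from a cell preparation labelled as neural fraction, isolated from the stroma around orthotopic tumours of SCC25, an established human oral carcinoma line. All hosts were NSG mice, which lack mature T, B and NK cells and keep macrophages and neutrophils, with impaired macrophage function. The tumour cells carried the non-targeting hairpin PLKO, the EGR2 hairpin shEGR2_40.9 or shEGR2_38.9, or the GAL hairpin shGAL, and the mice ate a control or a palmitic acid-rich (PA-rich) diet. Each of the 8 groups had 3 arrays, 24 in all, which the series calls technical replicates, so the p-values measure only the spread between these arrays. Age, sex and the number of animals behind a group were not given in the sources used here, and the silencing acts in human cells that mouse probe sets are not made to read.

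Macrophages are phagocytes that arise from embryonic precursors or from blood monocytes. CSF1, made by stromal, endothelial and epithelial cells, signals through the receptor CSF1R and keeps them alive. In peripheral nerves, resident and recruited macrophages clear myelin debris after injury. Several of their surface markers are shared: MRC1 is also found on lymphatic and sinusoidal endothelium, CD14 can be expressed by epithelial and other stromal cells, and CD68 is found in lysosomes of many cell types.

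RefSeq promoter sequence of build GRCm38.p6, the 250 bases before the gene start, was at hand for 6 of the 10 members. The 3 shown belong to members that moved in different ways. Capitals mark GAGGAA, the core bound by the myeloid factor PU.1, or its reverse complement, and TGANTCA, the AP-1 motif, and both strands were searched. The Mrc1 window is chr2:14229164-14229413 on the plus strand, the Cd68 window chr11:69666171-69666420 on the minus strand and the Csf1 window chr3:107760470-107760719 on the minus strand.
Mrc1: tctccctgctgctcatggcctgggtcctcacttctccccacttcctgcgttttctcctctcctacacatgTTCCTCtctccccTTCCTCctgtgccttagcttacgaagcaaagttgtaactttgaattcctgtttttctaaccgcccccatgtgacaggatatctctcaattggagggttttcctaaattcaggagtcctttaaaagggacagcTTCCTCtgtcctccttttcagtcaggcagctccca
Cd68: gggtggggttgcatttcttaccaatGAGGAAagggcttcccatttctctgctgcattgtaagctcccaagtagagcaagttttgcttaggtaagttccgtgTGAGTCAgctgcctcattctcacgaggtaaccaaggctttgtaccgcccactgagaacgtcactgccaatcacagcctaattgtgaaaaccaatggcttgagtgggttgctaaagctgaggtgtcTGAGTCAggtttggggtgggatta
Csf1: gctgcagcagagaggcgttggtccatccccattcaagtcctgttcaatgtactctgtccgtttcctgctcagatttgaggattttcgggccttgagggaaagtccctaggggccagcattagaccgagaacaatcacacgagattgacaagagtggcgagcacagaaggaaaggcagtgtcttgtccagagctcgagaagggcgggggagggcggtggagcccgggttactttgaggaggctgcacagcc
The Mrc1 window held 3 matches to GAGGAA, all on the minus strand, which lay 180, 167 and 35 bases before the start. The Cd68 window held 1 match to GAGGAA and 2 to TGANTCA, the nearer of these 24 bases before the start. The Csf1 window held neither, and no member's window held the EGR motif GCGTGGGCG. Of all 32851 promoter windows of that length, 23.3% held GAGGAA, 6.75% held TGANTCA and 0.536% held GCGTGGGCG. A match is a description of letters and was not tied to the expression values.

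The arrays were alike in overall level, with medians from 6.71 to 6.81. The control-diet replicate 3 of shEGR2_38.9 stood apart, with Gapdh control probe sets higher at the 3′ than at the 5′ end by 0.76, against -0.12 to 0.08 in the other 23 arrays. Without it, each of the members above the floor that were called in the comparisons that use shEGR2_38.9 kept its call and sign. Of 6 Schwann and glial markers measured, 4 lay above the floor (Sox10, Ngfr, Mbp and Pmp22), with per-array means of the 6 from 7.42 to 7.70. All 8 keratinocyte markers lay above the floor, with per-array means from 9.63 to 10.81.

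Of the 10 members, 4 were dim in every array. Cd163 lay between 4.57 and 4.77, Itgam between 4.68 and 5.10, Adgre1 between 5.08 and 5.76 and C1qa between 5.23 and 5.78. None of these 4 rose above the floor in any of the 24 arrays, and 19 of the 23 probe sets that the array carries for nonspecific binding also lay below that floor, with a median of 4.71. Of 20 further macrophage genes measured, 9 were dim, among them Aif1 (mean 5.64), Tyrobp (5.97) and Ctss (5.59), and 11 lay above the floor, among them Fcer1g (7.09), Apoe (7.02) and Fcgr1 (6.84). Of 5 pan-leukocyte genes, 3 were dim, among them Ptprc, which encodes the phosphatase CD45 (4.48), while Cd52 (8.28) and Vav1 (6.89) lay above the floor. Bulk RNA cannot tell fewer cells of a type from less RNA per cell, for these genes or for those below.

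**Figure D1:**
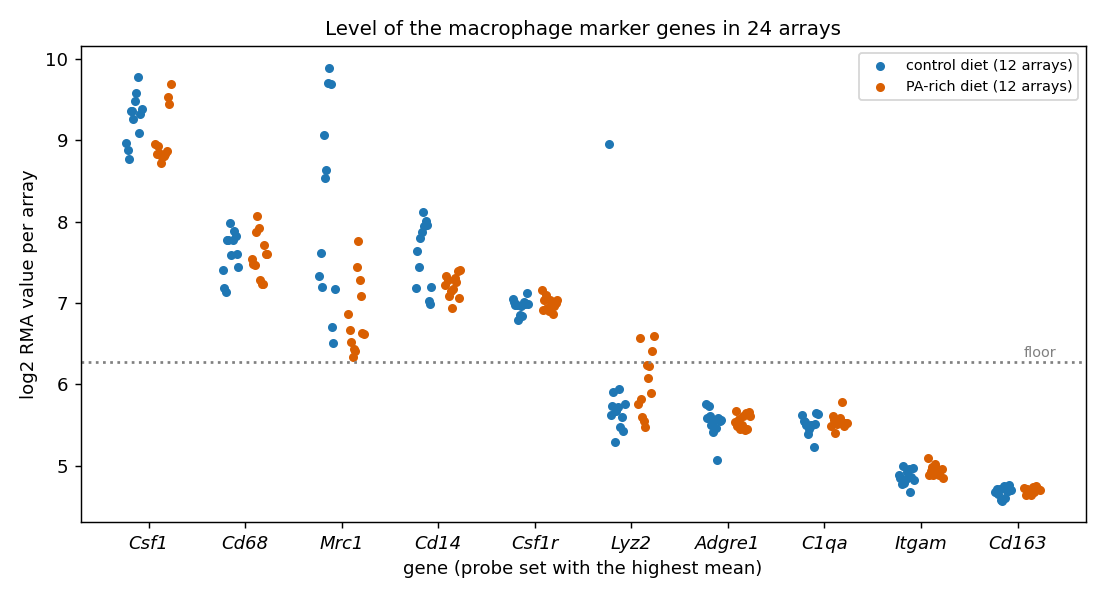
Level of each member in each of the 24 arrays (vertical axis: log2 RMA value; dotted line: the floor of 6.27; Csf1 by its brightest probe set), with control-diet arrays in blue and PA-rich arrays in orange. Mrc1 spreads from 6.34 to 9.89, the members from Lyz2 to the right lie below the floor apart from 4 Lyz2 arrays, and levels of different genes are not comparable because their probes differ.

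Lyz2, which encodes the lysozyme of macrophages and neutrophils, was below the floor on average (5.97) but above it in 4 of 24 arrays. In PLKO control-diet replicate 1 it reached 8.95, against 5.63 and 5.74 in replicates 2 and 3 and 5.30 to 6.60 in the other 23 arrays. Of 7 antigen presentation genes, 5 were highest in the same array, and Ciita and Itgax were not. H2-Ab1 read 9.63 there against 7.10 to 8.43 elsewhere, and Cd74 8.39 against 7.08 to 7.58. Arg1, the arginase of activated macrophages, read 7.37 against 6.08 to 6.56. The cornified envelope gene Lce1h also read 11.31 there, against 6.14 to 9.64. Adgre1 had its highest value in this array, 5.76, still below the floor, while Mrc1, Cd14 and Cd68 were not at their highest in it. The Lyz2 probe set is of a type that can share probes with related genes, so its signal may be mixed.

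Mrc1, an endocytic receptor for mannose-bearing glycans, had the widest range of group means of the tested members. With PLKO its levels were 7.34, 7.62 and 7.19 on the control diet and 6.86, 6.67 and 6.52 on the PA-rich diet. With shEGR2_40.9 they were 9.06, 8.54 and 8.63 on the control diet and 6.34, 6.44 and 6.41 on the PA-rich diet. With shEGR2_38.9 they were 9.70, 9.89 and 9.69 on the control diet and 7.44, 7.76 and 7.28 on the PA-rich diet. The PA-rich arrays thus lay below all control-diet arrays with each of these 3 hairpins. With shGAL the values were 6.71, 6.51 and 7.17 on the control diet and 7.09, 6.63 and 6.63 on the PA-rich diet, and the diets overlapped.

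Mrc1 was 5.09-fold lower on the PA-rich diet with shEGR2_40.9, a log2 difference of -2.35 (SE 0.16, limma adjusted p = 9.2e-09). With shEGR2_38.9 the fall was 4.80-fold, a difference of -2.26 (SE 0.16, adjusted p = 3.28e-09). With PLKO the difference was -0.70 (SE 0.16, adjusted p = 0.0341), lower in 3 of 3 replicate numbers. This PLKO call ended when only the arrays compared were fitted (adjusted p = 0.0545), in the test of every probe set without the filter (adjusted p = 0.0560) and when any of 5 of its 6 arrays was left out, all but control-diet replicate 3 (adjusted p = 0.0180 to 0.172 over the 24 arrays left out in turn). With shGAL the difference was -0.01 (95% interval -0.36 to 0.33, adjusted p = 0.979). The diet effect with the EGR2 hairpins differed from that with PLKO by -1.61 (SE 0.20, adjusted p = 2.29e-05), while that between the EGR2 hairpins differed by 0.08 (95% interval -0.40 to 0.57, adjusted p = 0.895). That with shGAL differed from PLKO by 0.68 (adjusted p = 0.162), which passed without shGAL control-diet replicate 3 (0.87, adjusted p = 0.0370).

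On the control diet, Mrc1 was 3.65-fold higher with the EGR2 hairpins than with PLKO, a difference of 1.87 (SE 0.14, adjusted p = 5.08e-09). It was 1.36 with shEGR2_40.9 and 2.38 with shEGR2_38.9, and within the scan batch that each shared with PLKO, 1.72 and 2.27. On the PA-rich diet the mean of both hairpins did not pass (0.26, SE 0.14, adjusted p = 0.508). There shEGR2_38.9 alone was higher by 0.81 (adjusted p = 0.0248), a call lost when any of 4 arrays was left out (PLKO replicate 2 or 3, or shEGR2_38.9 replicate 1 or 2; adjusted p = 0.0112 to 0.163 over all arrays left out), and shEGR2_40.9 gave -0.29 (adjusted p = 0.418). With shGAL on the control diet Mrc1 differed from PLKO by -0.59 (adjusted p = 0.0164). With scan batch as a block this became -0.40 (adjusted p = 0.112), and in the scan batch that both hairpins shared it was -0.02. The call was also lost in the fit of just these 6 arrays (adjusted p = 0.0620) and without PLKO replicate 2 or shGAL replicate 1 or 2 (adjusted p = 0.00273 to 0.105 over the arrays left out).

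In order of group means, Mrc1 was highest with shEGR2_38.9 on the control diet (9.76 ± 0.11, SD, n = 3), above shEGR2_40.9 on that diet (8.74 ± 0.28). Both steps below these were past the threshold, 1.01 to the second group (adjusted p = 2.23e-04) and 1.25 from there to shEGR2_38.9 on the PA-rich diet (adjusted p = 2.57e-05). The shEGR2_38.9 PA-rich group (7.49 ± 0.24) and PLKO on the control diet (7.38 ± 0.22) overlapped (adjusted p = 0.872). The groups shGAL control (6.80 ± 0.34), shGAL PA-rich (6.78 ± 0.27) and PLKO PA-rich (6.68 ± 0.17) overlapped in turn, and shEGR2_40.9 PA-rich was the lowest (6.40 ± 0.05). Its arrays lay below those of PLKO PA-rich, but that step of 0.29 did not pass (adjusted p = 0.418).

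**Figure D2:**
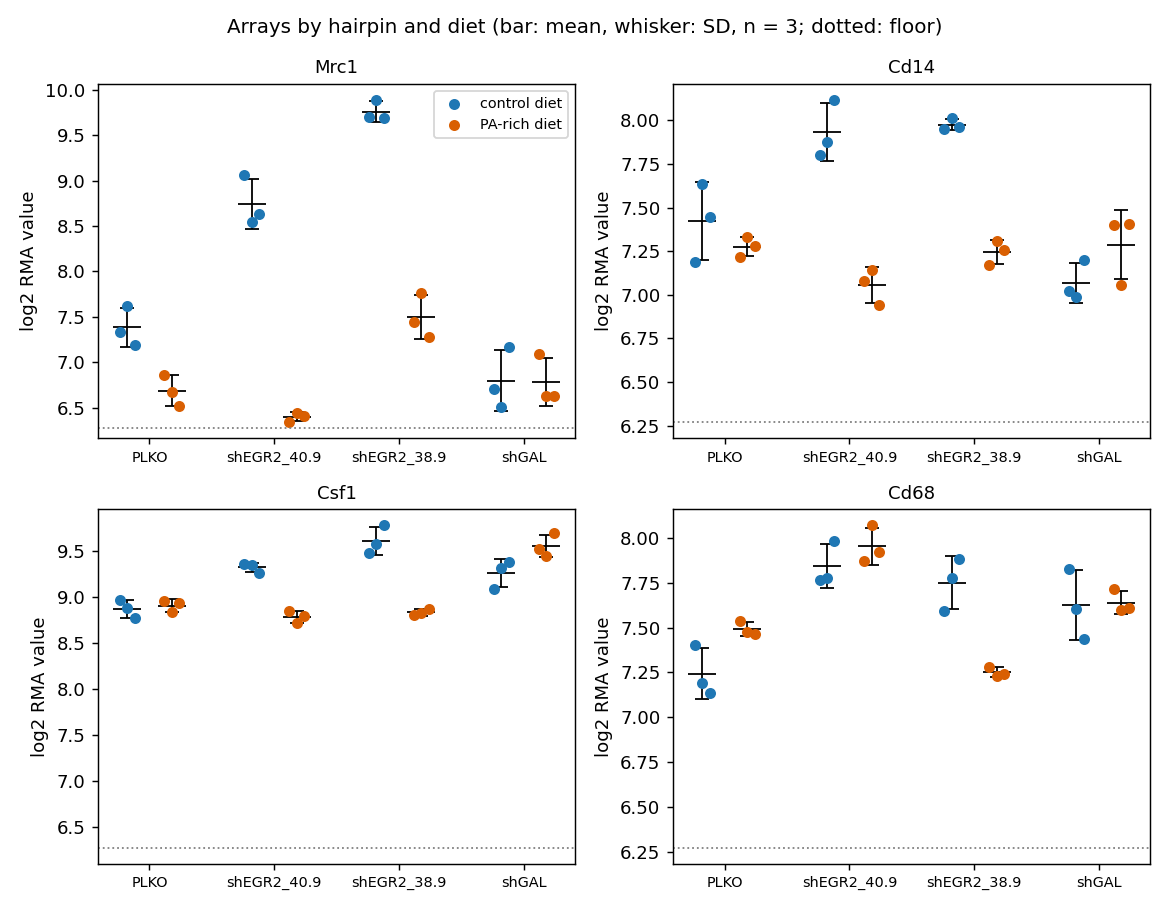
Arrays by hairpin and diet for Mrc1, Cd14, Csf1 and Cd68 (vertical axes: log2 RMA value; points: arrays; long bar: mean; whiskers: SD, n = 3; dotted line: floor), each panel with its own scale. Mrc1, Cd14 and Csf1 are highest on the control diet with the EGR2 hairpins, apart from Csf1 with shGAL, while Cd68 is high with shEGR2_40.9 on both diets.

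Markers of lymphatic endothelium moved with Mrc1. The mean of the 6 measured (Prox1, Flt4, Lyve1, Pdpn, Reln and Mmrn1, all above the floor) lay between 9.97 and 10.52 with shEGR2_40.9 and between 10.61 and 11.02 with shEGR2_38.9 on the control diet. On the PA-rich diet it lay between 8.38 and 8.80 and between 9.25 and 9.42. With PLKO it lay between 8.97 and 9.53 on the control diet and between 8.60 and 8.84 on the PA-rich diet, and with shGAL between 8.29 and 8.95 and between 8.74 and 9.14. Of these 6 genes, 5 fell on the PA-rich diet with shEGR2_40.9 and 6 of 6 with shEGR2_38.9, with median differences of -2.07 and -1.73. With PLKO 0 of the 6 were called, but 5 had an unadjusted p under 0.05 in limma, and the median was -0.69. Of 10 blood and pan-endothelial markers 9 fell with each EGR2 hairpin. With PLKO 0 of these 10 were called, with 3 at an unadjusted p under 0.05 and a median of -0.23. For the EGR2 hairpins on the control diet, 6 of the 6 lymphatic and 9 of the 10 other endothelial genes were higher than with PLKO, and with shGAL 5 of the 6 lymphatic genes were lower. Other stromal lists moved too. Of 5 pericyte and smooth muscle genes, 4 were higher with the EGR2 hairpins than with PLKO on the control diet (median 0.62), and on the PA-rich diet 3 fell with shEGR2_38.9 (median -0.55) and 0 with shEGR2_40.9, where 1 had an unadjusted p under 0.05 in limma. Their mean lay between 8.96 and 9.29 and between 8.88 and 9.25 on the control and PA-rich diets with shEGR2_40.9, between 9.11 and 9.58 and then 7.81 and 8.18 with shEGR2_38.9, between 7.75 and 8.39 with PLKO and between 7.49 and 7.86 with shGAL. Of 3 fibroblast genes above the floor, Thy1 and Dcn fell with shEGR2_40.9, while with shEGR2_38.9 Thy1 fell and Dcn rose. Beside these counts, 0.811% of all tested genes were called lower on the PA-rich diet with PLKO, 5.22% with shEGR2_40.9 and 8.3% with shEGR2_38.9. On the control diet 10.8% were called higher with the EGR2 hairpins than with PLKO, and 9.84% lower with shGAL. Across the 24 arrays Mrc1 and the lymphatic mean had a Pearson r of 0.984, with 0.984 over the 12 control-diet and 0.934 over the 12 PA-rich arrays. Taken singly, the lymphatic markers had an r with Mrc1 from 0.656 (Pdpn) to 0.983 (Reln). The blood and pan-endothelial markers ran from 0.797 (Esam) to 0.977 (Cdh5), apart from Flt1 at -0.164, so the likeness was not particular to lymphatic markers. Each r is a description, since the arrays fall into 8 groups of technical replicates. Over the same arrays the mean of Cd163, Adgre1, Itgam and C1qa stayed between 4.92 and 5.27, with the low end in shEGR2_38.9 control-diet replicate 3. These genes were below the floor in every array and have only an upper limit on their level. Their narrow range therefore cannot be set against the r of the lymphatic markers. The part of endothelial, pericyte or fibroblast RNA in the Mrc1 result was not tested.

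**Figure D3:**
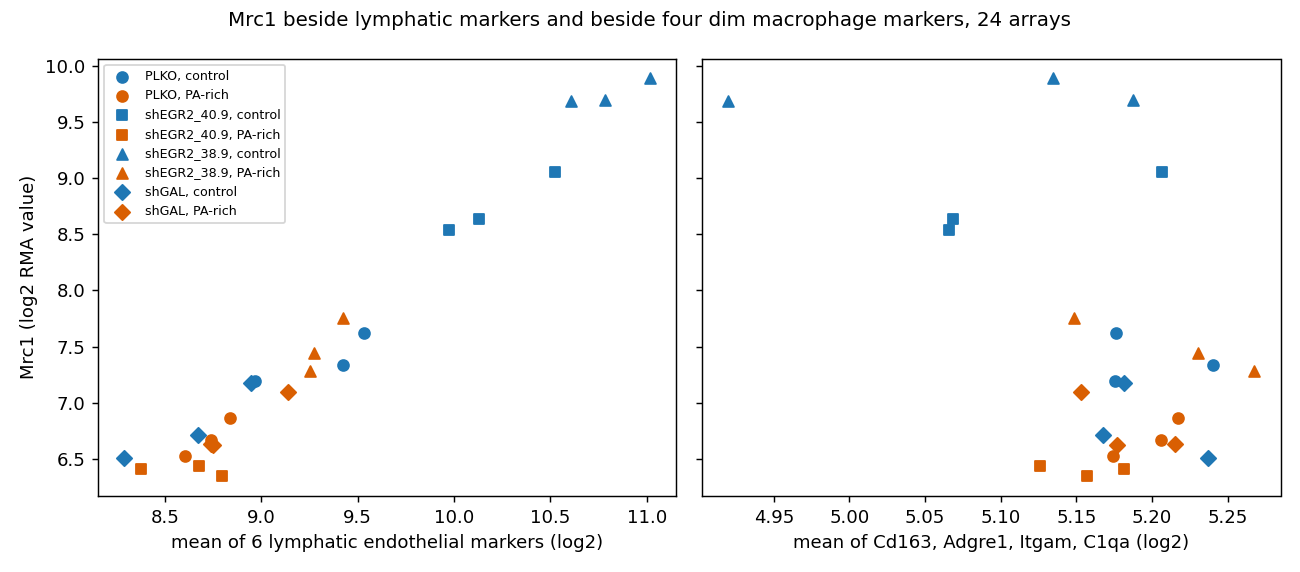
Mrc1 (vertical axis, log2 RMA value) in each of the 24 arrays against the mean of 6 lymphatic endothelial markers (left) and against the mean of Cd163, Adgre1, Itgam and C1qa (right, all below the floor), with a shape for each hairpin and a colour for each diet. On the left the arrays lie close to a line. On the right the horizontal axis spans only 4.92 to 5.27, and because these genes are dim it cannot show whether Mrc1 goes with them.

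The 5 genes whose pattern over the 24 arrays was most like that of Mrc1 were Nid1 (r = 0.986), a basement membrane nidogen, Reln (0.983), Scn3a (0.981), Gng11 (0.981) and Calcrl (0.979), the receptor of adrenomedullin and CGRP. Mrc1 had an r of 0.90 with Cd14, 0.53 with Csf1, 0.14 with Cd68 and -0.41 with Csf1r.

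Cd14, which passes bacterial endotoxin to TLR4, also fell on the PA-rich diet with both EGR2 hairpins. With shEGR2_40.9 its levels were 7.80, 7.87 and 8.12 on the control diet and 7.08, 7.14 and 6.94 on the PA-rich diet. With shEGR2_38.9 they were 7.95, 8.01 and 7.96 on the control diet and 7.17, 7.31 and 7.25 on the PA-rich diet. The diets did not overlap with either hairpin, and the arrays of both hairpins on the control diet were above all 18 other arrays. With PLKO the levels were 7.19, 7.64 and 7.45 on the control diet and 7.22, 7.33 and 7.28 on the PA-rich diet, and with shGAL 7.02, 6.99 and 7.20 and then 7.40, 7.06 and 7.41. There the diets overlapped.

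The diet differences in Cd14 were -0.88 with shEGR2_40.9 (SE 0.11, adjusted p = 7.87e-06) and -0.73 with shEGR2_38.9 (SE 0.11, adjusted p = 2.35e-05). They were -0.15 with PLKO (adjusted p = 0.682) and 0.22 with shGAL (adjusted p = 0.312), neither past the threshold. The effect with the EGR2 hairpins differed from that with PLKO by -0.65 (SE 0.13, adjusted p = 0.00210). On the control diet Cd14 was higher by 0.53 with the EGR2 hairpins than with PLKO (SE 0.09, adjusted p = 1.83e-04), and within the shared scan batch by 0.61 for shEGR2_40.9 and 0.37 for shEGR2_38.9. On the PA-rich diet the difference was -0.12 (95% interval -0.32 to 0.07). With shGAL on the control diet it differed from PLKO by -0.35 (adjusted p = 0.0238), and by -0.25 within the shared scan batch. This call was lost in the fit of just these 6 arrays (adjusted p = 0.0935) and without PLKO replicate 2 or 3 or shGAL replicate 1 or 2 (adjusted p = 0.00496 to 0.153 over the arrays left out). The genes most like Cd14 were Calcrl (r = 0.948), Adamtsl1 (0.938), Timp2 (0.927), Tacc1 (0.914) and Nid1 (0.912), and its r with the lymphatic mean was 0.899. The part of endothelial RNA in the Cd14 result was not tested.

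Of 6 other genes of endotoxin recognition, 4 were above the floor (Tlr4, Lbp, Tlr2 and Myd88). Lbp, the secreted endotoxin-binding protein, fell on the PA-rich diet by 0.39 on the log2 scale with shEGR2_40.9 (adjusted p = 0.0435) and by 0.58 with shEGR2_38.9 (adjusted p = 0.00115). Tlr2, a receptor for bacterial lipopeptides, went down with shEGR2_40.9 (-0.38, adjusted p = 9.02e-04) and up with shEGR2_38.9 (0.24, adjusted p = 0.0143), and the difference between these effects was 0.62 (adjusted p = 4.65e-04). With PLKO and with shGAL 0 of the 4 passed in the diet effect in limma, and 1 had an unadjusted p under 0.05 in each. The diet effect with the EGR2 hairpins differed from that with PLKO for 0 of the 4, with 1 at an unadjusted p under 0.05. Among all tested genes, 0.811% were called lower in the diet effect with PLKO and 1.94% in either direction with shGAL. For the difference between the EGR2 hairpins and PLKO, 4.57% were called lower. At such shares, 0 of 4 says little about these genes.

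Csf1, the growth factor that macrophages depend on, was measured by 4 probe sets, and the brightest stood for the gene. With shEGR2_40.9 it read 9.35, 9.35 and 9.26 on the control diet and 8.85, 8.71 and 8.79 on the PA-rich diet. With shEGR2_38.9 it read 9.48, 9.57 and 9.78 on the control diet and 8.80, 8.82 and 8.87 on the PA-rich diet. With PLKO it read 8.97, 8.88 and 8.77 on the control diet and 8.96, 8.83 and 8.93 on the PA-rich diet. The PA-rich arrays of the EGR2 hairpins thus came to the levels of PLKO. With shGAL it read 9.09, 9.31 and 9.38 on the control diet and 9.53, 9.45 and 9.69 on the PA-rich diet, where the PA-rich arrays were the higher ones without overlap.

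Csf1 fell on the PA-rich diet by 0.54 on the log2 scale with shEGR2_40.9 (SE 0.09, adjusted p = 1.86e-04) and by 0.78 with shEGR2_38.9 (SE 0.09, adjusted p = 5.4e-07). With PLKO the difference was 0.03 (95% interval -0.15 to 0.21, adjusted p = 0.935). With shGAL it was 0.30 (SE 0.09, adjusted p = 0.0746), which passed with scan batch as a block (adjusted p = 0.0480) and without shGAL control-diet replicate 3 or shEGR2_38.9 control-diet replicate 3 (adjusted p = 0.0307 to 0.363 over the arrays left out). The effect with the EGR2 hairpins differed from PLKO by -0.69 (SE 0.11, adjusted p = 1.6e-04), and that with shGAL by 0.26 (adjusted p = 0.312). On the control diet Csf1 was higher than with PLKO by 0.59 with the EGR2 hairpins (SE 0.07, adjusted p = 3.4e-06) and by 0.38 with shGAL (SE 0.09, adjusted p = 0.00352). On the PA-rich diet it was higher by 0.65 with shGAL (SE 0.09, adjusted p = 1.76e-05), while with the EGR2 hairpins the difference was -0.10 (95% interval -0.25 to 0.06). Within the scan batch shared with PLKO, the shGAL values were 0.60 and 0.76, and those of shEGR2_40.9 and shEGR2_38.9 on the control diet 0.39 and 0.69.

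The Csf1 probe sets differed in how far they moved. Every probe set naming 1 gene was tested, and the diet effect passed for 5.99% of them with shEGR2_40.9 and 16% with shEGR2_38.9. The brightest, 1460220_PM_a_at, and 1448914_PM_a_at, which is annotated to the same transcript record, both fell on the PA-rich diet with shEGR2_38.9, the second by 0.41 (adjusted p = 0.00294). With shEGR2_40.9 the second read -0.29 (adjusted p = 0.0662). The other 2, annotated to another record, read -0.10 and -0.18 with shEGR2_40.9 and -0.07 and -0.26 with shEGR2_38.9, none past the threshold. On the control diet, where 18.1% of all probe sets passed, these 2 differed between the EGR2 hairpins and PLKO by 0.02 and 0.12, against 0.37 for 1448914_PM_a_at (adjusted p = 0.00176). The difference of the diet effect between the EGR2 hairpins and PLKO, which passed for 6.34% of all probe sets, was -0.36 for 1448914_PM_a_at (adjusted p = 0.0558) and -0.16 and -0.25 for the other 2 (adjusted p = 0.612 and 0.321), so that only the brightest of the 4 passed. All 4 had the same sign in these comparisons. Against PLKO, shGAL was also higher by 1448914_PM_a_at (0.36 on the control and 0.43 on the PA-rich diet, adjusted p = 0.0114 and 0.00349), while the other 2 read from 0.10 to 0.24 and did not pass. The Csf1 results above thus hold for the probe set named and were smaller in the others.

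**Figure D4:**
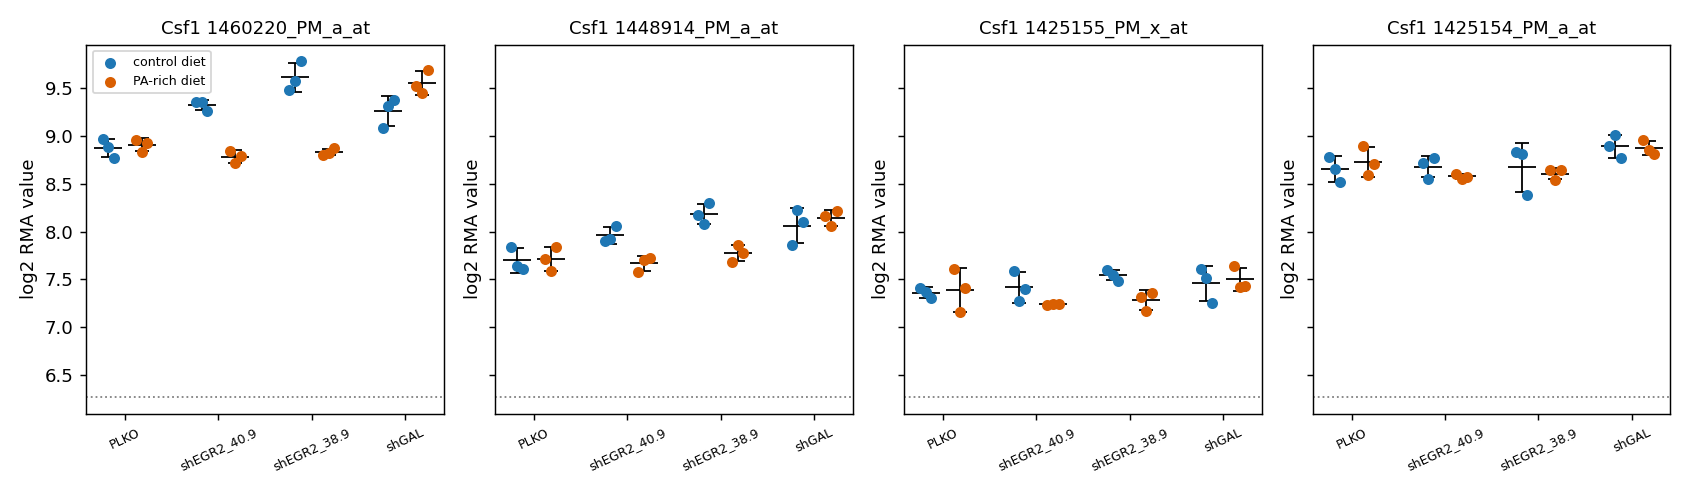
The 4 Csf1 probe sets by hairpin and diet (vertical axis: log2 RMA value; points: arrays; long bar: mean; whiskers: SD, n = 3; dotted line: floor). The separation of the diets with the EGR2 hairpins is widest for 1460220_PM_a_at, smaller for 1448914_PM_a_at, and within the spread of the arrays for 1425154_PM_a_at.

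The genes most like Csf1 were Rassf8 (r = 0.899), the chemokine gene Ccl5 (0.892), Prss23 (0.875), Akap13 (0.861) and Grk5 (0.859). Csf1r, the tyrosine kinase that binds CSF1, lay between 6.79 and 7.16 in all 24 arrays. Its diet differences were 0.02 with PLKO, 0.11 with shEGR2_40.9, 0.01 with shEGR2_38.9 and -0.03 with shGAL, and in limma it passed in 0 of the 11 main comparisons, with an unadjusted p under 0.05 in 0. The 95% intervals of the diet differences stayed within -0.19 and 0.27. Il34, the other ligand of CSF1R, was dim (mean 5.74). Csf2rb, the receptor chain shared by GM-CSF and interleukins 3 and 5, fell by 0.60 on the PA-rich diet with shEGR2_38.9 (adjusted p = 7.44e-04) and was higher by 0.66 on the control diet with the EGR2 hairpins (adjusted p = 5.9e-05).

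Cd68 encodes a lysosomal glycoprotein that is abundant in phagocytes. With PLKO its levels were 7.40, 7.19 and 7.13 on the control diet and 7.53, 7.48 and 7.46 on the PA-rich diet. With shEGR2_40.9 they were 7.77, 7.78 and 7.98 on the control diet and 7.87, 8.07 and 7.92 on the PA-rich diet. With shEGR2_38.9 they were 7.59, 7.78 and 7.88 on the control diet and 7.28, 7.23 and 7.24 on the PA-rich diet. The PA-rich arrays were thus the lower ones with shEGR2_38.9, the higher ones with PLKO, and overlapped with the control-diet arrays with shEGR2_40.9. With shGAL the levels were 7.83, 7.60 and 7.44 and then 7.72, 7.60 and 7.61, which overlapped.

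Cd68 fell on the PA-rich diet by 0.50 on the log2 scale with shEGR2_38.9 (SE 0.10, adjusted p = 4.87e-04). The difference was 0.11 with shEGR2_40.9 (95% interval -0.09 to 0.31, adjusted p = 0.574), 0.25 with PLKO (adjusted p = 0.290) and 0.02 with shGAL (adjusted p = 0.958). The effects with the EGR2 hairpins differed from each other by -0.61 (SE 0.14, adjusted p = 0.00785). Their mean differed from PLKO by -0.44 (SE 0.12, adjusted p = 0.0163), a call lost without PLKO control-diet replicate 3 or PA-rich replicate 1 (adjusted p = 0.00791 to 0.0640 over the arrays left out). Taken singly in limma, shEGR2_38.9 differed from PLKO by -0.75 (adjusted p = 5.59e-04) and shEGR2_40.9 by -0.14 (adjusted p = 0.714), so only the former passed. On the control diet Cd68 was higher than with PLKO by 0.55 with the EGR2 hairpins (SE 0.08, adjusted p = 3.07e-05), and within the shared scan batch by 0.36 for shEGR2_40.9 and 0.59 for shEGR2_38.9. With shGAL it was higher by 0.38 (adjusted p = 0.00786) and within the shared scan batch by 0.30. This call was lost in the fit of just these 6 arrays (adjusted p = 0.0709) and without shGAL replicate 1 (adjusted p = 0.00238 to 0.0653 over the arrays left out). On the PA-rich diet shEGR2_40.9 was higher by 0.46 (adjusted p = 0.00576), a call lost with scan batch as a block (0.38, adjusted p = 0.0580), and shEGR2_38.9 gave -0.24 (adjusted p = 0.395). The genes most like Cd68 were Mrnip (r = 0.859), Nfe2l3 (0.852), Kptn (0.851), Cyb5d2 (0.851) and Hmox1 (0.832), the haem-degrading oxygenase. The pericyte and smooth muscle list had 3 of 5 genes lower on the PA-rich diet with shEGR2_38.9, as given above, and its part in the Csf1 and Cd68 results was not tested.

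**Figure D5:**
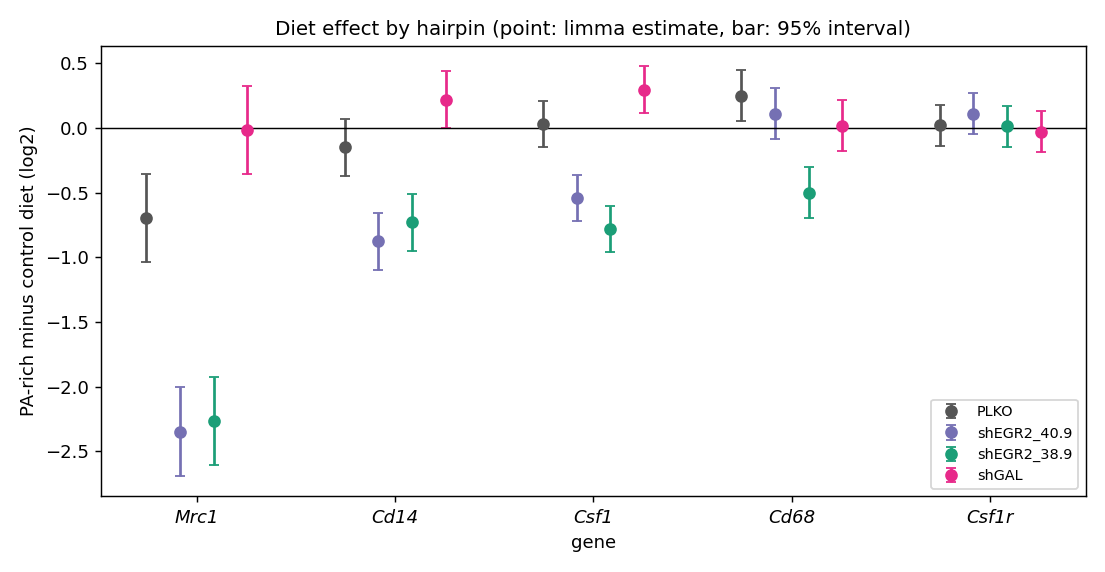
Diet effect on each tested member by hairpin (vertical axis: PA-rich minus control diet, log2; points: limma estimates; bars: 95% intervals). Mrc1, Cd14 and Csf1 lie below 0 with both EGR2 hairpins, Cd68 only with shEGR2_38.9, and Csf1r lies near 0 with all 4 hairpins.

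Counted over the 5 tested members, 1 fell on the PA-rich diet with PLKO (0.811% of all 11844 tested genes were called lower), 3 with shEGR2_40.9 (5.22%) and 4 with shEGR2_38.9 (8.3%). With shGAL 0 were called in limma (1.94% of all genes in either direction), and 1, Csf1, had an unadjusted p under 0.05. The median differences over the 5 were 0.02, -0.54, -0.73 and 0.02, beside 0.01, 0.03, 0.07 and -0.01 over all tested genes. The diet effect was lower with the EGR2 hairpins than with PLKO for 4 members (4.57% of all genes called lower), and lower with shEGR2_38.9 than with shEGR2_40.9 for 1, Cd68 (1.81%). For Cd68 the difference from PLKO passed in limma with shEGR2_38.9 alone (-0.75, adjusted p = 5.59e-04) but not with shEGR2_40.9 alone (-0.14, adjusted p = 0.714). Between shGAL and PLKO the diet effect differed for 0 in limma (1.33% in either direction), with an unadjusted p under 0.05 for 3, Mrc1, Cd14 and Csf1. On the control diet 4 members were higher with the EGR2 hairpins than with PLKO (10.8% of all genes called higher), and with shGAL 2 were higher (7.15%) and 2 lower (9.84%). On the PA-rich diet 0 were called with the EGR2 hairpins (1.11% in either direction), with an unadjusted p under 0.05 for 0, and 1, Csf1, was higher with shGAL (7.6%). The control-diet arrays of the EGR2 hairpins enter both their diet effects and their contrast with PLKO, so these counts share arrays. In the test of every probe set without the filter, 2 dim members also passed, both at levels below the floor in every array. C1qa was higher by 0.23 on the PA-rich diet with shEGR2_38.9 (limma adjusted p = 0.0416), where 16% of all probe sets passed. Adgre1 differed by -0.26 on the control diet between the EGR2 hairpins and PLKO (adjusted p = 0.0373), where 18.1% passed. In shEGR2_38.9 control-diet replicate 3, the array that stood apart, C1qa read 5.23, against 5.50 and 5.50 in replicates 1 and 2. Adgre1 read 5.08 there, against 5.56 and 5.47. By hairpin, its limma difference was -0.19 with shEGR2_40.9 (adjusted p = 0.279) and -0.33 with shEGR2_38.9 (adjusted p = 0.0185). Whether these 2 calls hold without that array was not tested.

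Of the 11 further macrophage genes above the floor, 2 were called in the diet effects, Irf8 and Gpnmb. Irf8, a transcription factor of monocytes and dendritic cells, fell on the PA-rich diet by 0.81 on the log2 scale with shEGR2_40.9 (adjusted p = 1.16e-06) and by 1.30 with shEGR2_38.9 (adjusted p = 9.01e-10). Control-diet arrays of the EGR2 hairpins were higher than those of PLKO by 1.12 (adjusted p = 4.41e-10). Gpnmb fell by 0.29 with shEGR2_38.9 (adjusted p = 0.0243). The counts among these 11 were thus 0 with PLKO (unadjusted p under 0.05 in limma for 0), 1 with shEGR2_40.9, 2 with shEGR2_38.9 and 0 with shGAL (unadjusted for 1), with medians of 0.04, 0.03, 0.05 and -0.02. Among all tested genes, 0.811% were called lower with PLKO, 5.22% with shEGR2_40.9 and 8.3% with shEGR2_38.9, and 1.94% in either direction with shGAL. Of the scavenger and tissue-resident macrophage genes, 4 lay above the floor, Msr1, Stab1, Siglec1 and Cd209f. Among these only Stab1, also known from sinusoidal and lymphatic endothelium, was called in the diet effects. It fell by 1.12 with shEGR2_40.9 (adjusted p = 3.5e-06) and by 1.20 with shEGR2_38.9 (adjusted p = 3.22e-07), and was higher by 1.12 on the control diet with the EGR2 hairpins (adjusted p = 1.43e-07). Folr2, Vsig4, Timd4, Marco, Cd36 and Clec10a were dim.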

How the data were processed

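The deposited values are log2 values, and the submitters' processing notes name RMA and the affy package without a version. Of 45141 probe sets, 28898 named 1 gene symbol, 551 several and 15692 none, and those naming 1 were used. The brightest probe set stood for a gene, and 5253 of 17097 genes below the floor were left out, which kept 11844. The members and the other gene lists were chosen with earlier results of these data known. All 10 members were named, with every probe set, up to 4 called genes of each other list, and the 5 genes most correlated with each member whose group means spanned over 0.5.

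Differences were fitted with limma 3.58.1 in R 4.3.3 as 8 group means over 24 arrays (residual degrees of freedom 16), with Benjamini-Hochberg adjustment over all kept genes at 0.05, two-sided, and tested on simulated data. Scan batch in the labels matched the replicate number within a hairpin in 12 of 12 pairs of diets, so the numbers pair the arrays. The residual correlations of these pairs ran from -0.03 to 0.24. Alternatives were a fit without the filter on dim genes, scan batch as a block, the mean of a gene's probe sets, only the arrays compared, renewed quantile normalization, each other Csf1 probe set and each array left out. Arrays carry no count depth, and their number limits the precision.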

Additional observations from a re-analysis of the deposited data

Results flagged for a closer look

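The diet effect differed between hairpins for 4 members when the EGR2 hairpins were tested against PLKO, each with an interaction term in limma. The difference was -1.61 for Mrc1 (adjusted p = 2.29e-05), -0.44 for Cd68 (adjusted p = 0.0163), -0.65 for Cd14 (adjusted p = 0.00210) and -0.69 for Csf1 (adjusted p = 1.6e-04). The Csf1 value is that of its brightest probe set, and the difference did not pass for the other 3 (-0.16 to -0.36, adjusted p = 0.0558 to 0.612). For Mrc1, Cd14 and Csf1 the level fell on the PA-rich diet with both EGR2 hairpins. For Cd68 the diet effect also differed between the EGR2 hairpins themselves, by -0.61 for shEGR2_38.9 minus shEGR2_40.9 (adjusted p = 0.00785). Its difference from PLKO passed with shEGR2_38.9 alone (-0.75, adjusted p = 5.59e-04) but not with shEGR2_40.9 alone (-0.14, adjusted p = 0.714). With 3 arrays a group, no array was tested as an outlier.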

How the results depend on the processing

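Under the alternatives no called member changed its sign, and 35 values that were not called, with or without the alternative, did. The count of members called in the diet effect with PLKO went from 1 to 0 with only the arrays compared, and from 4 to 1 for shGAL minus PLKO on the control diet. With the replicate block (scan batch) the count in the diet effect with shGAL went from 0 to 1, and over all genes the block changed 1 count of calls by over 1.5 times, that for the EGR2 hairpins against PLKO on the PA-rich diet, from 132 to 71. With each of the 24 arrays left out in turn, the counts ran from 0 to 1 for the diet effect with PLKO, from 0 to 1 for that with shGAL, from 0 to 1 for the difference between shGAL and PLKO, from 3 to 4 for that between the EGR2 hairpins and PLKO and from 1 to 4 for shGAL minus PLKO on the control diet, and were constant in the other 6 comparisons. The cause was not tested. Apart from leaving out arrays, 437 values of members kept their direction and side of the threshold, 8 that were not called changed sign, 1 gained and 30 lost a call, most of the last for the other Csf1 probe sets. Without the filter on dim genes, 5 members were called in place of 4 for the diet effect with shEGR2_38.9 and for the EGR2 hairpins against PLKO on the control diet. In the test of every probe set, the dim members that passed there were C1qa (0.23) and Adgre1 (-0.26). Each ran opposite to the other 4 and lay below the floor in every array. In these comparisons 16% and 18.1% of all probe sets naming 1 gene passed.

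Over all genes, the calls in the diet effect went from 140 to 70 with PLKO, from 230 to 47 with shGAL and from 2623 to 1295 with shEGR2_38.9 when only the arrays compared were fitted. In that fit the calls for the difference of diet effects went from 158 to 105 between shGAL and PLKO and from 660 to 431 between the EGR2 hairpins, and those on the control diet from 2987 to 1550 for the EGR2 hairpins and from 2013 to 1202 for shGAL, each against PLKO. For the EGR2 hairpins on the PA-rich diet they rose from 132 to 595. With the mean of a gene's probe sets the last became 205, and the diet effect with shGAL 384. With arrays left out, the diet effect gave from 56 to 269 with PLKO, from 59 to 528 with shGAL and from 689 to 1534 with shEGR2_40.9, the difference between shGAL and PLKO from 82 to 343, and the PA-rich diet against PLKO from 59 to 257 for the EGR2 hairpins and from 968 to 2097 for shGAL. The highest of each came without shEGR2_38.9 control-diet replicate 3. Dim members have only an upper limit on their level here.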

Other observations

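Of the tested genes of macrophage activation and of neutrophils, only Il1rn, Tnf and S100a9 are given here, each higher with shGAL than with PLKO on both diets. Il1rn, the interleukin-1 receptor antagonist, was higher with shGAL by 0.98 on the control diet (SE 0.09, limma adjusted p = 9.69e-08). The PA-rich value was 0.63 (adjusted p = 2.46e-05), with the same sign in its 3 probe sets. Tnf was higher by 0.42 (adjusted p = 0.00411) and 0.30 (adjusted p = 0.0462). These were 2 of the 6 activation genes above the floor on each diet. Among all tested genes, the share called higher with shGAL was 7.15% for control-diet arrays and 7.6% for PA-rich arrays. S100a9, a calcium-binding protein of neutrophils that epithelial cells can also make, was higher by 0.78 (adjusted p = 0.00140) and 1.30 (adjusted p = 5.99e-06), as 1 of 3 neutrophil genes above the floor. The other 5 of 8 were below the floor on average and not tested, among them S100a8, the partner of S100a9, which lay above the floor in the 6 shGAL arrays alone. It read 6.47, 7.44 and 6.69 with shGAL on the control diet and 7.33, 8.08 and 7.87 on the PA-rich diet. Il6 was also below the floor on average and not tested, but read 7.28, 7.36 and 6.96 with shEGR2_40.9 and 6.60, 6.73 and 5.97 with shEGR2_38.9 on the control diet. The 5.97 lay below the floor and came from replicate 3, the array that stood apart. In the other groups Il6 read from 4.75 to 5.86. Activation genes were also called in the diet effects in limma, 1 of the 6 with PLKO and 1 with shEGR2_38.9. Il1rn was higher on the PA-rich diet with PLKO (0.38, adjusted p = 0.0280), and Tnf with shEGR2_38.9 (0.51, adjusted p = 4.53e-04). Of all 11844 tested genes, 140 and 2623 were called in these diet effects, in either direction.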
